A study of Mus musculus with 13 samples.

Results

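Fibroblast growth factor (FGF) genes were described in mouse embryonic fibroblasts (MEFs) before and during reprogramming to pluripotency. The set held 10 genes of the 24495 in the count table: the FGF carrier gene Fgfbp1, the ligand genes Fgf2, Fgf5, Fgf7 and Fgf10, the receptor genes Fgfr1, Fgfr2, Fgfr3 and Fgfr4, and the receptor-like gene Fgfrl1. All 10 were found by symbol, and 9 had enough reads to be tested. Fgf5 did not. Fgfbp1 was picked from the comparison of day 5 empty-vector cells with untreated MEFs, where it stood among the most significant genes, and the others were added by family. The members' differences from untreated MEFs are therefore given as descriptions with no test, and the members were tested only among day 5 cells.

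The libraries fell into 4 groups. All cells were MEFs that lack Tet2 (Tet2-/-; OKSM; rtTA, strain background V6.5 129XBI/6, age label embryonic day 12.5), with the reprogramming factors Pou5f1, Klf4, Sox2 and Myc (OKSM) under doxycycline control. Tet2 is an enzyme that oxidises methylated cytosine in DNA. Tet2-WT cells (n = 3) carried wild-type Tet2 in a pMXs retrovirus, Tet2-E cells (n = 4) carried a stalling mutant of Tet2, and pMXs cells (n = 3) carried the empty vector. These 3 groups were collected at day 5 of reprogramming, after growth on Mito-C-treated MEF feeders with LIF, doxycycline, the MEK inhibitor PD0325901 and the GSK3 inhibitor CHIR99021. Untreated MEFs (n = 3) were not reprogrammed, and the labels leave it unclear whether they had received the empty vector. Replicates bear the numbers 1, 2, 100 and 250, and no label says that they were separate cultures, so the p-values may reflect technical spread alone. No sort or feeder removal is described, so RNA of feeder fibroblasts may be in the day 5 libraries, and in such bulk RNA fewer cells of a type and less RNA per cell cannot be told apart.

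FGF ligands are secreted proteins that bind receptor tyrosine kinases of the FGFR family together with heparan sulfate on the cell surface. The activated receptor passes its signal through adaptors to RAS and the ERK kinases, with Sprouty proteins and other target genes feeding back on it. Heparan sulfate also holds ligands in the matrix, and FGF-binding proteins such as Fgfbp1 are known as carriers that release them. FGF and ERK signalling favours differentiation in mouse pluripotent cells, which is why a MEK inhibitor, acting below the receptors, is used in this medium. Tet2 acts on methylated CG sites, so the promoter windows of the 4 members that changed with Tet2-WT are shown, with each CG in capitals and all else in lower case. They are RefSeq sequences of build GRCm38.p6, 300 bases each, from 250 bases before the annotated start to 50 after it, written 5′ to 3′ on the gene's strand.
Fgfbp1, chr5:43981750-43982049, minus strand: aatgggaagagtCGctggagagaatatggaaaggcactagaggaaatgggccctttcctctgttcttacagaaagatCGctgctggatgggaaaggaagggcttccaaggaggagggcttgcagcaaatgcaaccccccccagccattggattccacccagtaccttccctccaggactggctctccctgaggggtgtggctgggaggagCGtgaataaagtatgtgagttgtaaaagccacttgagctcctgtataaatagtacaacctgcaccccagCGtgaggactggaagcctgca
Fgfr2, chr7:130266759-130267058, minus strand: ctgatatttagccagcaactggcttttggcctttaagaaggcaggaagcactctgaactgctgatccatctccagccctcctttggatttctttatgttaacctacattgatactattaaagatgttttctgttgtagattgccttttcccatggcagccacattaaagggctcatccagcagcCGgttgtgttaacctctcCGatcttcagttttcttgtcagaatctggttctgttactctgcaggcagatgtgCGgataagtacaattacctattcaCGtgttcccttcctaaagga
Fgf7, chr2:126034408-126034707, plus strand: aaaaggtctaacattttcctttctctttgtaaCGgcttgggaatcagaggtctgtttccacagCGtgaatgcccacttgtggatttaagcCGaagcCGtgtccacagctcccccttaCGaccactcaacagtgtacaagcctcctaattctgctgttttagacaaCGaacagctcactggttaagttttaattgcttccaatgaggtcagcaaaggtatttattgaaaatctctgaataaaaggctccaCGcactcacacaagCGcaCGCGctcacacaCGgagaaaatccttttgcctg
Fgf10, chr13:118714449-118714748, plus strand: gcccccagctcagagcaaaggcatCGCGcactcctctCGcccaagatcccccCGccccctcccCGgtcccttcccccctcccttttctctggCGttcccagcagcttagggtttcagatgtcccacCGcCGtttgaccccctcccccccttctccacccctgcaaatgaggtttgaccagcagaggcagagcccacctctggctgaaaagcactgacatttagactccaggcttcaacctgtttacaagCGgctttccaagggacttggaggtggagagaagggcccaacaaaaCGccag
The Fgfbp1 window held 4 CG sites, and so did the Fgfr2 window, where 38.0% of all 32851 windows in the table held as few and the median window held 7. Fgf7 had 11 and Fgf10 had 10, counts that 60.4% and 58.6% of windows did not exceed. Among the other members with a window, CG counts ran from 20 in Fgfr4 to 37 in Fgfrl1. Windows were in the table for 9 of the 10 genes, and Fgfr1 had none. The 4 members called with Tet2-WT had fewer CG sites than the other members with a window, a description with no test. Of those others Fgf5 was not tested for change, and Fgf2 and Fgfr4 had few reads at day 5, so they are not shown to be unchanged. CACCC, a core bound by Klf factors, was searched on both strands and stood at 3 places in the Fgfbp1 window, 1 in Fgf10 and none in Fgfr2 or Fgf7, while 57.5% of all windows held it. CACGTG, an E-box that Myc can bind and a palindrome, stood once in the Fgfr2 window and in none of the other 3 shown, against 7.2% of all windows. No member's window held both motifs. DNA methylation was not measured in these files, and a match is a description of the sequence only.

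Total counts were 20261396 to 25720579 in Tet2-WT, 14052646 to 26265382 in Tet2-E, 14310277 to 25326826 in pMXs and 21985590 to 25991708 in untreated libraries. Levels are counts-per-million (CPM) on scaled library sizes. Tet2 RNA averaged 1217 ± 36.2 CPM in Tet2-WT (SD, n = 3) and 1160 ± 388 CPM in Tet2-E (SD, n = 4), against 46.4 ± 10.8 CPM in pMXs and 43.8 ± 5.40 CPM in untreated cells (SD, n = 3 each). Tet2-E replicate 100 stood apart at 581 CPM, and the vector-borne gene was present in every library labelled with it. Tests are edgeR quasi-likelihood tests with Benjamini-Hochberg adjustment over 14607 genes, and "rose" or "fell" marks an adjusted p under 0.05. Log2 changes are given with their standard error.

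Fgfbp1 rose with Tet2-WT, and 3 members fell: the receptor gene Fgfr2 and the ligand genes Fgf7 and Fgf10. That was 4 of 9 members tested in the comparison of Tet2-WT with pMXs, where 12.5% of all genes were called, 6.01% higher and 6.52% lower. None of the 9 was called by edgeR with Tet2-E, where 0.0479% of all genes were (7 genes, or 93 with the replicate block). Of the 9, 2 had an unadjusted p under 0.05, as did 1363 of all genes, and DESeq2 called 141 genes and none of the 9. Between the Tet2-WT and Tet2-E cells, 2 of 9 were called, Fgfbp1 higher and Fgfr2 lower with Tet2-WT, against 4.62% of all genes, 2.43% higher and 2.19% lower. The median log2 change of the 9 members was -0.11 for Tet2-WT against pMXs, -0.19 for Tet2-E against pMXs and -0.16 for Tet2-WT against Tet2-E, beside a median of -0.0037, -0.000065 and -0.0051 over all genes. Both comparisons with pMXs share the same 3 pMXs libraries. The plot of changes in the 9 tested genes shows them side by side.

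**Figure D1:**
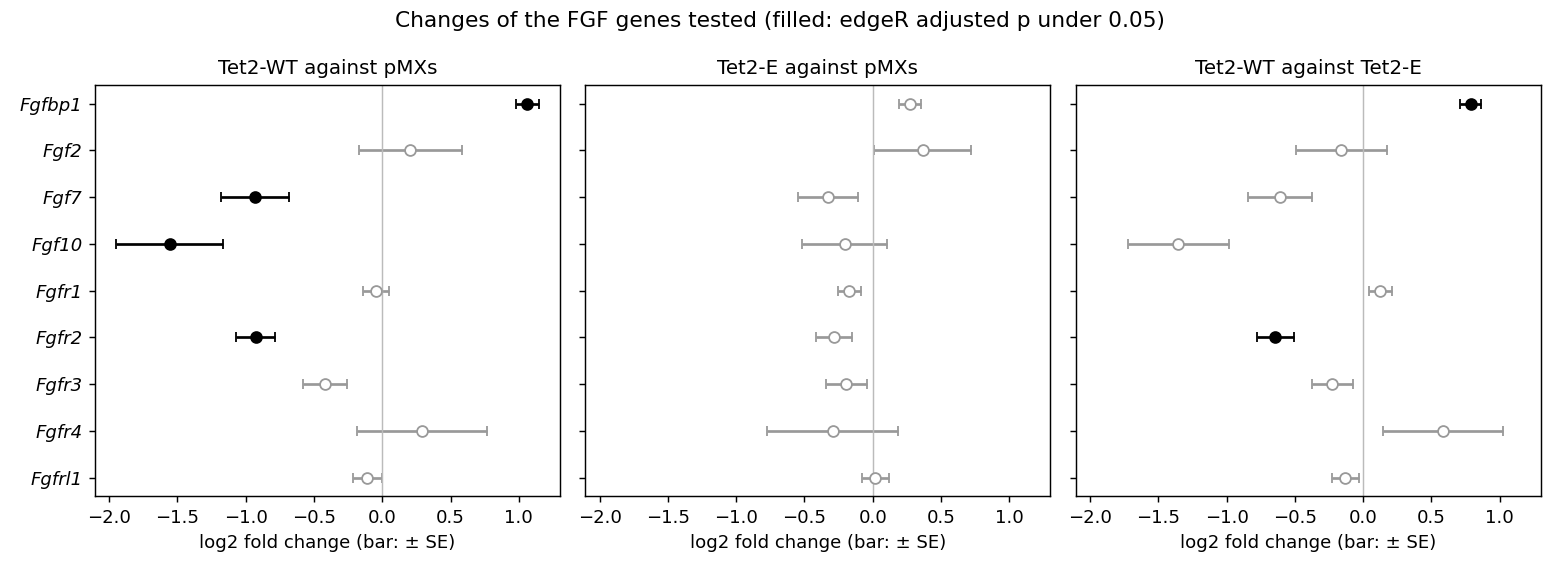
Log2 fold changes (x axis) of the 9 tested FGF genes (rows), with bars for ± SE, in the 3 comparisons among day 5 cells. Filled points have an edgeR adjusted p under 0.05: 4 with Tet2-WT against pMXs, 0 with Tet2-E against pMXs and 2 with Tet2-WT against Tet2-E.

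Fgfbp1 was almost absent from untreated MEFs and abundant at day 5, and more so with Tet2-WT. Its levels were 108, 106 and 99.0 CPM in Tet2-WT replicates 1, 2 and 250, against 57.9, 62.8, 61.3 and 60.5 CPM in Tet2-E replicates 1, 2, 100 and 250. In pMXs replicates 2, 100 and 250 they were 48.6, 57.1 and 44.3 CPM, and in untreated replicates 1, 2 and 100 they were 0.208, 0.151 and 0.195 CPM. No 2 of the 4 groups overlapped, in the order Tet2-WT, Tet2-E, pMXs and untreated. Fgfbp1 was 1.06 ± 0.08 higher on the log2 scale in Tet2-WT than in pMXs (edgeR adjusted p = 2.33e-06), the 13th smallest p of all genes tested. It was 0.79 ± 0.08 higher in Tet2-WT than in Tet2-E (edgeR adjusted p = 2.81e-05). All 4 Tet2-E libraries lay above all 3 pMXs libraries, but the difference of 0.27 ± 0.08 was not called (edgeR adjusted p = 0.237). The log2 difference of pMXs from untreated MEFs was 8.03 ± 0.17, the value that chose the gene. It rests on 2903 counts in the 3 pMXs libraries against 12 counts in the 3 untreated ones. Per scaled library size the ratio was 276, with a 95% counting interval of 158 to 534, which covers counting error only.

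The calls of Fgfbp1 held whichever library was left out. Within replicates 1 and 2 the log2 change of Tet2-WT against pMXs was 1.14 ± 0.13, and within replicates 100 and 250 it was 0.95 ± 0.12. Against Tet2-E it was 0.83 ± 0.10 and 0.70 ± 0.11. Both sets of replicate numbers gave a rise, with 1 pMXs library in the first set and 1 Tet2-WT library in the second, each taken to vary like the other groups.

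**Figure D2:**
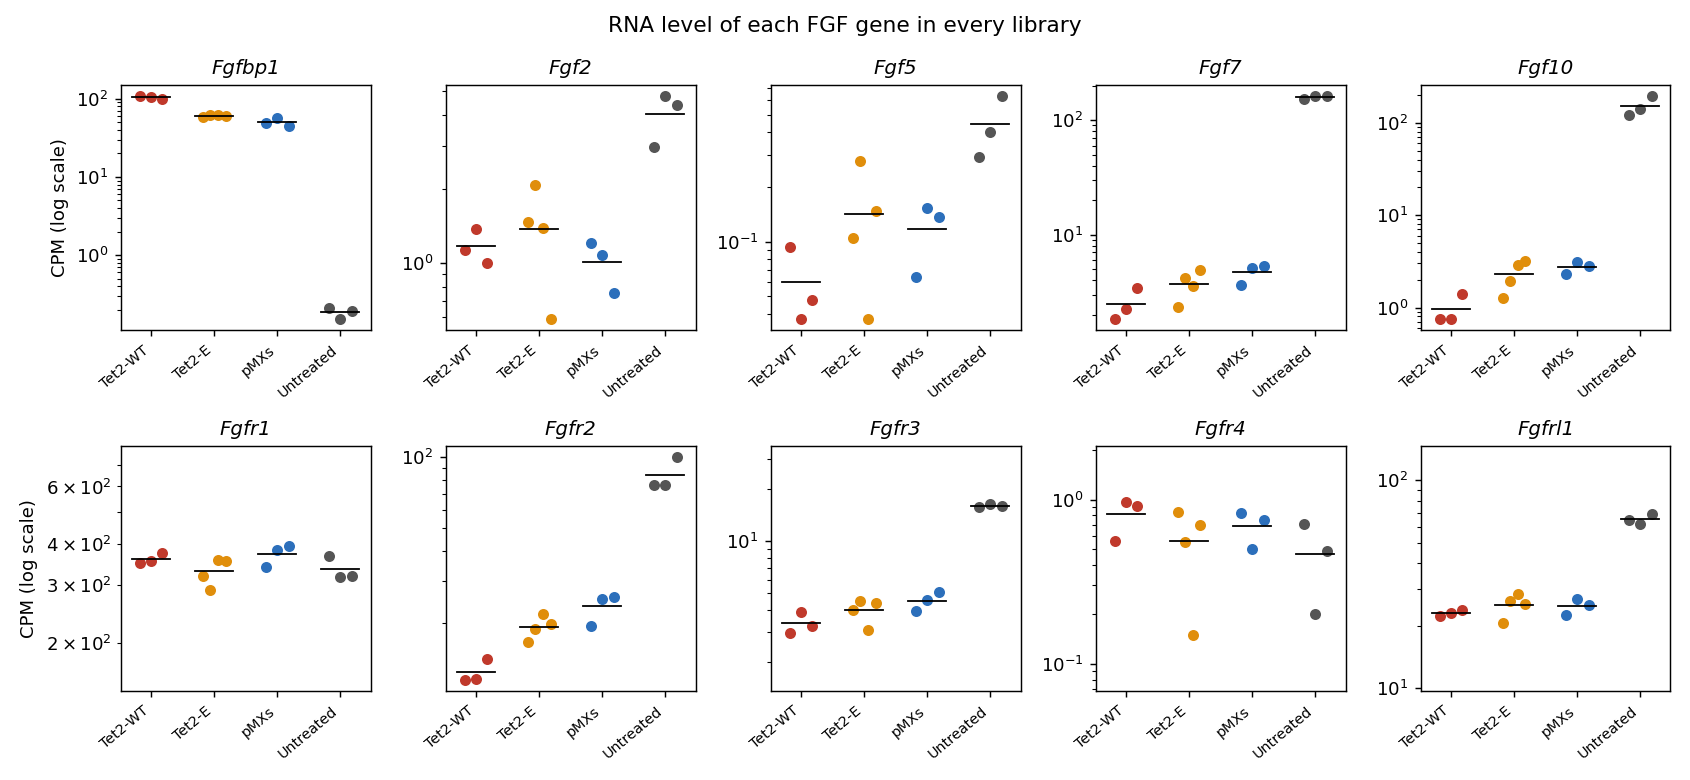
CPM on a log scale (y axis) of each of the 10 FGF genes in every library, by group (x axis), with points for libraries and a bar for the group mean. Fgfbp1 alone was high at day 5 and near 0.2 CPM in untreated MEFs, Fgf7 and Fgf10 lay above 100 CPM only in untreated MEFs, and Fgfr1 lay between 289 and 394 CPM in every library.

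Fgf7 and Fgf10, ligands of one subfamily that mesenchymal cells make for receptors on epithelia, were abundant in untreated MEFs, low in day 5 cells, and lowest with Tet2-WT. Fgf7 (keratinocyte growth factor) had 1.83, 2.24 and 3.44 CPM in Tet2-WT replicates 1, 2 and 250, against 2.36, 4.15, 3.55 and 4.93 CPM in the Tet2-E replicates. It had 3.68, 5.13 and 5.34 CPM in pMXs replicates 2, 100 and 250, and 152, 162 and 161 CPM in untreated replicates 1, 2 and 100. The Tet2-WT libraries lay below all pMXs libraries, overlapped with those of Tet2-E, and every day 5 library lay far below the untreated ones. Fgf7 fell with Tet2-WT against pMXs by 0.93 ± 0.25 on the log2 scale (edgeR adjusted p = 0.0217). Against Tet2-E its change of -0.61 ± 0.23 was not called (edgeR adjusted p = 0.198), nor was that of Tet2-E against pMXs, -0.33 ± 0.22 (edgeR adjusted p = 0.694). Its call against pMXs was lost without Tet2-WT replicate 1 or 2 (edgeR adjusted p = 0.0967 and 0.0965) and without pMXs replicate 100 or 250 (0.0997 and 0.0837). Within replicates 1 and 2 the change was -0.84 ± 0.31 (edgeR adjusted p = 0.120), and within 100 and 250 it was -0.60 ± 0.26 (0.180). Without Tet2-E replicate 1, its lowest Tet2-E library, the change against Tet2-E became -0.76 ± 0.20 (edgeR adjusted p = 0.0482).

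Fgf10, needed in the embryo for limb and lung buds, had 0.751, 0.746 and 1.39 CPM in Tet2-WT replicates 1, 2 and 250, and 1.258, 1.94, 2.91 and 3.17 CPM in Tet2-E replicates 1, 2, 100 and 250. It had 2.28, 3.14 and 2.81 CPM in pMXs replicates 2, 100 and 250, against 122, 140 and 195 CPM in untreated replicates 1, 2 and 100. The Tet2-WT libraries were the lowest, apart from pMXs and overlapping with Tet2-E only through Tet2-WT replicate 250 and Tet2-E replicate 1. Fgf10 fell with Tet2-WT against pMXs by 1.56 ± 0.39 (edgeR adjusted p = 0.0180), the largest fall among the members in this comparison. The call was lost without Tet2-WT replicate 1 or 2 (edgeR adjusted p = 0.0725 and 0.0851) or pMXs replicate 100 (0.0866), and held within replicates 1 and 2 (-1.60 ± 0.34) and within 100 and 250 (-1.12 ± 0.28). Against Tet2-E the change of -1.35 ± 0.37 just missed the threshold (edgeR adjusted p = 0.0559). With the replicate number as a block, a design that the day 5 libraries allow, it was -1.19 ± 0.17 and called (edgeR adjusted p = 0.00105). It was called too within replicates 1 and 2 (-1.05 ± 0.30, edgeR adjusted p = 0.0430) and within 100 and 250 (-1.13 ± 0.27, 0.0277), by DESeq2 (adjusted p = 0.00973), and without Tet2-WT replicate 250 (edgeR adjusted p = 0.0398), Tet2-E replicate 1 (0.0139) or untreated replicates 1 (0.0469) or 100 (0.0224). A term for the replicate number set also gave a call for Tet2-WT against Tet2-E (-1.17 ± 0.19, edgeR adjusted p = 0.00115). Under the other settings run this change was not called. Among them were RLE scaling, the other filters, only the 2 groups compared, and leaving out Tet2-WT replicate 1 or 2. Tet2-E against pMXs gave -0.20 ± 0.31 (edgeR adjusted p = 0.893). The day 5 levels of both ligands rest on few reads: Fgf10 had 65 counts over the Tet2-WT libraries, 216 over Tet2-E and 159 over pMXs, and Fgf7 had 171, 334 and 270.

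Against untreated MEFs, the log2 differences of Fgf7 were -5.99 ± 0.21 in Tet2-WT, -5.38 ± 0.18 in Tet2-E and -5.06 ± 0.20 in pMXs. Those of Fgf10 were -7.32 ± 0.30, -5.97 ± 0.23 and -5.77 ± 0.26. These 3 differences share the untreated libraries, and the 2 ligands had the largest drops of any member.

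**Figure D3:**
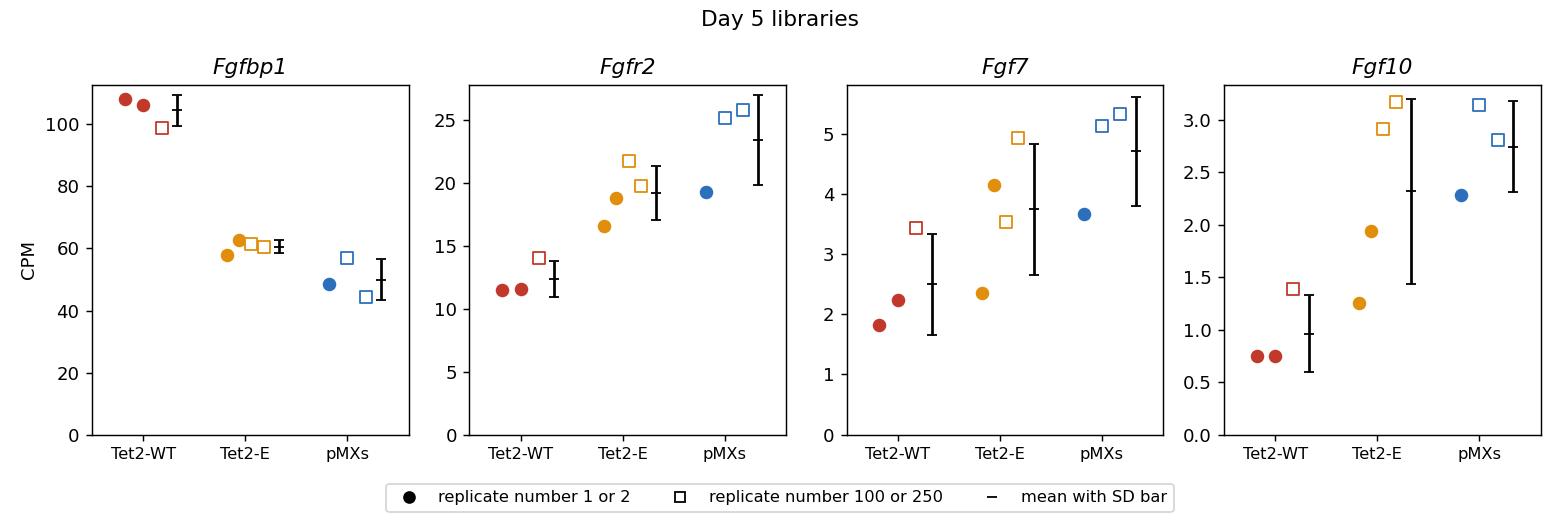
CPM (y axis, from 0) of the 4 FGF genes called with Tet2-WT, in the 3 groups at day 5 (x axis); points are libraries, with replicates 1 and 2 filled and 100 and 250 open, and the bars beside them give the mean ± SD. Tet2-WT libraries were apart from pMXs in all 4 genes, above for Fgfbp1 (99.0 to 108 against 44.3 to 57.1 CPM) and below for the other 3.

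Fgf2 (basic FGF), a ligand with no signal peptide that many fibroblasts make, was low at day 5 and no change was called among day 5 cells. It had 1.13, 1.38 and 1.00 CPM in Tet2-WT replicates 1, 2 and 250, and 1.47, 2.08, 1.38 and 0.589 CPM in the Tet2-E replicates. It had 1.20, 1.07 and 0.753 CPM in pMXs replicates and 2.96, 4.79 and 4.38 CPM in untreated ones. The day 5 groups overlapped one another and lay below the untreated libraries, by -1.97 ± 0.34 on the log2 scale for pMXs. The changes were 0.21 ± 0.38 for Tet2-WT against pMXs (edgeR adjusted p = 0.797) and 0.37 ± 0.36 for Tet2-E against pMXs (0.798). The standard errors are wide, so a change of this order could not be detected at 58 to 111 counts per day 5 group. Fgf2 shares 640 exon bases with the antisense gene Nudt6 in GENCODE M21, and whether the counting used strand is unknown, so reads of the pair may not be separated. Nudt6 had 6.69 ± 0.25 CPM in Tet2-WT (SD, n = 3), 6.35 ± 0.64 in Tet2-E (n = 4), 6.04 ± 0.19 in pMXs and 11.5 ± 1.99 in untreated cells (n = 3 each), also lower at day 5.

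Fgf5, known as a marker of primed epiblast cells and, in the skin, as a brake on hair growth, was at the limit of detection. It had 4 counts over the 3 Tet2-WT libraries, 11 over the 4 Tet2-E libraries, 7 over the 3 pMXs libraries and 28 over the 3 untreated libraries. The ratio of pMXs to untreated per scaled library size was 0.285, with a 95% counting interval of 0.105 to 0.668. The libraries of the 2 groups did not overlap. Among day 5 cells the 3 groups overlapped. With no filter on low counts, the change of Tet2-WT against pMXs was -1.01 ± 0.85 on the log2 scale (edgeR adjusted p = 0.628).

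Fgfr2, whose epithelial splice form is the receptor of Fgf7 and Fgf10, fell with Tet2-WT against both other day 5 groups. It had 11.5, 11.6 and 14.04 CPM in Tet2-WT replicates 1, 2 and 250, and 16.6, 18.8, 21.8 and 19.8 CPM in Tet2-E replicates 1, 2, 100 and 250. It had 19.3, 25.2 and 25.8 CPM in pMXs replicates 2, 100 and 250, against 76.1, 76.4 and 100.1 CPM in untreated replicates 1, 2 and 100. Every Tet2-WT library lay below every Tet2-E and pMXs library, while Tet2-E and pMXs overlapped. The change was -0.93 ± 0.14 on the log2 scale for Tet2-WT against pMXs (edgeR adjusted p = 0.000571) and -0.64 ± 0.14 for Tet2-WT against Tet2-E (0.0116). For Tet2-E against pMXs it was -0.28 ± 0.13 (edgeR adjusted p = 0.529). Within replicates 1 and 2 and within 100 and 250, the change of Tet2-WT was -0.74 ± 0.12 and -0.86 ± 0.12 against pMXs, and -0.61 ± 0.10 and -0.57 ± 0.12 against Tet2-E, all called. Without Tet2-WT replicate 1 or 2 the change against Tet2-E was no longer called (edgeR adjusted p = 0.0742 and 0.0743). The log2 differences from untreated MEFs were -2.77 ± 0.14 in Tet2-WT, -2.12 ± 0.13 in Tet2-E and -1.84 ± 0.14 in pMXs. Gene counts do not separate the splice forms of the receptor, and 314 exon bases are shared with a transcript of Ctbp2 on the same strand in GENCODE M21.

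Fgfr1, a main FGF receptor of mesenchymal cells, had a high level in every group. It had 350, 356 and 377 CPM in Tet2-WT replicates 1, 2 and 250, and 320, 289, 358 and 356 CPM in the Tet2-E replicates. It had 341, 384 and 394 CPM in pMXs replicates and 368, 317 and 320 CPM in untreated ones. All groups overlapped. The change was -0.05 ± 0.09 for Tet2-WT against pMXs (edgeR adjusted p = 0.817), -0.17 ± 0.09 for Tet2-E against pMXs (0.567) and 0.13 ± 0.09 for Tet2-WT against Tet2-E (0.579), and the log2 difference of pMXs from untreated MEFs was 0.15 ± 0.09. Reads were plentiful here, with at least 21138 counts per group, so the small standard errors set a narrow limit on any change. An antisense gene, Gm16159, shares 164 exon bases with Fgfr1.

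Fgfr3, a receptor best known for restraining cartilage growth, had 2.96, 3.88 and 3.25 CPM in Tet2-WT replicates 1, 2 and 250, and 3.98, 4.50, 3.06 and 4.38 CPM in the Tet2-E replicates. It had 3.93, 4.56 and 5.06 CPM in pMXs replicates against 15.9, 16.4 and 15.9 CPM in untreated ones. The Tet2-WT libraries lay below the pMXs libraries, the nearest pair at 3.88 and 3.93 CPM, but the change of -0.42 ± 0.16 was not called (edgeR adjusted p = 0.113). Tet2-E against pMXs gave -0.19 ± 0.15 (edgeR adjusted p = 0.742) and Tet2-WT against Tet2-E gave -0.22 ± 0.15 (0.573). All day 5 libraries were below the untreated ones, by -1.83 ± 0.15 on the log2 scale for pMXs.

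Fgfr4, the receptor that liver uses for bile acid control, was near the floor everywhere, with 57 counts over the Tet2-WT libraries, 47 over Tet2-E, 37 over pMXs and 31 over untreated. Its mean level was 0.813 ± 0.219 CPM in Tet2-WT (SD, n = 3), 0.560 ± 0.298 in Tet2-E (n = 4), 0.692 ± 0.171 in pMXs and 0.465 ± 0.254 in untreated cells (n = 3 each), with overlap between all groups. The change of Tet2-WT against pMXs was 0.29 ± 0.47 (edgeR adjusted p = 0.765). No difference was detectable at this depth.

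Fgfrl1, a receptor-like membrane protein that binds FGF but has no kinase domain, was lower at day 5, where its groups overlapped. It had 22.4, 23.1 and 23.7 CPM in Tet2-WT replicates 1, 2 and 250, and 20.6, 26.4, 28.6 and 25.3 CPM in the Tet2-E replicates. It had 22.6, 26.8 and 25.2 CPM in pMXs replicates and 64.2, 61.8 and 69.1 CPM in untreated ones. All day 5 libraries lay below the untreated ones, by -1.38 ± 0.10 on the log2 scale for pMXs. The change was -0.11 ± 0.11 for Tet2-WT against pMXs (edgeR adjusted p = 0.579) and -0.13 ± 0.10 for Tet2-WT against Tet2-E (0.642). For Tet2-E against pMXs it was 0.02 ± 0.10 (edgeR adjusted p = 0.978).

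Set against untreated MEFs, 7 of the 9 tested members had pMXs libraries that did not overlap with the untreated ones, 1 higher (Fgfbp1) and 6 lower (Fgf2, Fgf7, Fgf10, Fgfr2, Fgfr3 and Fgfrl1). Over all tested genes 36.1% were higher and 35.9% lower by the same criterion, and 70.1% were called by edgeR, so most genes differed between these groups. The contrast chose Fgfbp1 and was known when the others were added, so nothing is read from the count. The members' median log2 difference was -1.83 for pMXs, -1.77 for Tet2-WT and -1.61 for Tet2-E.

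The order of the genes by level changed between MEFs and day 5 cells. On a scale of mean CPM per kilobase of exon (GENCODE M21 lengths, all annotated exons), Fgfr1 was highest of the 10 in every group, at 69.2 ± 2.70 in Tet2-WT, 63.4 ± 6.32 in Tet2-E, 71.5 ± 5.38 in pMXs and 64.3 ± 5.50 in untreated cells. Fgfbp1 was 2nd in all day 5 groups, at 46.2 ± 2.16, 26.8 ± 0.916 and 22.1 ± 2.88 CPM per kilobase in Tet2-WT, Tet2-E and pMXs, and 10th in untreated MEFs at 0.0816 ± 0.0132. In untreated MEFs Fgf7 (50.3 ± 1.82), Fgf10 (37.0 ± 9.23) and Fgfrl1 (25.1 ± 1.45) came next after Fgfr1, followed by Fgfr2 at 16.5 ± 2.69. In day 5 cells Fgfrl1 was 3rd and Fgfr2 4th in each group. Fgf2, Fgf5 and Fgfr4 were each under 1 CPM per kilobase in all groups. At day 5 Fgf10 was also under 1 in all 3 groups, Fgfr3 in Tet2-WT (0.764 ± 0.107) and Tet2-E (0.905 ± 0.148), and Fgf7 in Tet2-WT (0.796 ± 0.266). Fgf2 and Fgfr4 overlapped within their SDs in Tet2-E (0.211 ± 0.094 and 0.169 ± 0.090) and pMXs (0.155 ± 0.036 and 0.208 ± 0.052), whereas Fgf2 and Fgf5 lay apart in Tet2-WT (0.179 ± 0.029 and 0.0238 ± 0.0120).

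The gene whose levels ran most like Fgfbp1 over all 13 libraries was Acp6, an acid phosphatase of lipids (Pearson r = 0.998 of log2 CPM), followed by Scg5 (0.998), a neuroendocrine chaperone, and Mfsd6 (0.997). Over the 10 day 5 libraries the closest were Atg9b (0.980), an autophagy gene, Cers2 (0.979), a ceramide synthase, and Gsr (0.977), glutathione reductase. Fgf7 was most like Mmp23, St3gal1 and Il1r1, the interleukin-1 receptor, all at 0.996 to 0.997, and Fgf10 was most like Il1r1, Vcl and Vegfd, at 0.996 to 0.997. Fgfr2 was most like Thbd, Thbs2 and Igf2 (0.996 to 0.997), Fgfr3 like Sra1, Ntrk3 and Plau (0.991 to 0.992), and Fgfrl1 like Pdgfra, Fam3c and Msrb3 (0.988 to 0.989). For Fgf2 the closest were Zfp108, Fbxl22 and Hoxc6 (0.961 to 0.970), and for Fgfr1 they were Fnbp1, Mfsd10 and Tmem231 (0.905 to 0.920). No gene ran closely with Fgfr4, whose best value was 0.787 with 8430408G22Rik. Values over 13 libraries rest mainly on the gap between untreated and day 5 cells, and they are descriptions over libraries that share their groups.

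Among the other FGF ligand genes, 10 of 18 had enough reads, and 1 rose and 2 fell with Tet2-WT against pMXs, where 12.5% of all genes were called, with a median log2 change of -0.043 beside -0.0037 over all genes. Fgf9, a ligand of developing gonad, lung and limb, had 3.66 ± 0.33 CPM in Tet2-WT against 11.01 ± 1.42 CPM in pMXs (SD, n = 3 each), a log2 change of -1.59 ± 0.18 (edgeR adjusted p = 3.56e-05), and fell by 1.10 ± 0.17 against Tet2-E, which had 7.89 ± 1.15 CPM (n = 4; edgeR adjusted p = 0.00152). Fgf18, a ligand of cartilage and bone, fell to 24.5 ± 4.07 CPM in Tet2-WT, against 38.3 ± 6.27 CPM in pMXs (-0.65 ± 0.16, edgeR adjusted p = 0.0151). Fgf20 rose to 2.26 ± 0.56 CPM in Tet2-WT, against 0.888 ± 0.236 CPM in pMXs (1.32 ± 0.36, edgeR adjusted p = 0.0278), and had 0 counts in all untreated libraries. The calls of Fgf18 and Fgf20 depended on single libraries, and the count of 3 became 1 without Tet2-WT replicate 1 or 2 or pMXs replicate 100 or 250. That of Fgf18 was lost without Tet2-WT replicate 1 (edgeR adjusted p = 0.0722) or 2 (0.0812) and without pMXs replicate 100 (0.0885) or 250 (0.0571), and that of Fgf20 without any 1 of Tet2-WT replicates 1 (0.0514) and 2 (0.128) and pMXs replicates 2 (0.0545), 100 (0.0714) and 250 (0.118). With Tet2-E none of the 10 was called by edgeR or DESeq2, 3 had an unadjusted p under 0.05, and Fgf9 had the smallest (-0.49 ± 0.15, edgeR adjusted p = 0.280).

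Fgf4, the ligand that pluripotent cells make and a known target of Pou5f1 and Sox2, had 62.9 ± 7.23 CPM in Tet2-WT (SD, n = 3), 54.2 ± 6.84 in Tet2-E (n = 4) and 46.9 ± 7.76 in pMXs (n = 3). No change of Fgf4 among day 5 cells was called. Against pMXs it was 0.42 ± 0.14 in Tet2-WT (edgeR adjusted p = 0.0694) and 0.20 ± 0.13 in Tet2-E (0.694). For Tet2-WT against Tet2-E it was 0.22 ± 0.13 (edgeR adjusted p = 0.499). In untreated MEFs Fgf4 had 5 counts over the 3 libraries. Of the 10 tested ligand genes 5 were higher in pMXs than in untreated MEFs, where 70.1% of all genes were called, and 1, Fgf1, was lower, at 0.814 ± 0.157 CPM in pMXs against 3.03 ± 0.58 CPM in untreated cells (edgeR adjusted p = 3.81e-05). Fgf9 was higher in pMXs, by 3.10 ± 0.20 on the log2 scale, so the rise at day 5 and the fall with Tet2-WT had opposite signs in this gene.

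Co-receptors and binding proteins fell more than they rose with Tet2-WT: 1 rose and 5 fell of 15 tested, where 6.01% of all genes rose and 6.52% fell, with a median log2 change of -0.16 beside -0.0037 over all genes. Gpc3, a glypican that carries heparan sulfate, fell to 11.2 ± 0.91 CPM in Tet2-WT, against 27.9 ± 3.29 CPM in pMXs (-1.31 ± 0.19, edgeR adjusted p = 0.000431). Flrt3, a membrane protein that binds FGF receptors, fell to 14.9 ± 0.21 CPM in Tet2-WT, against 24.6 ± 2.06 CPM in pMXs (-0.72 ± 0.12, edgeR adjusted p = 0.00120). The member that rose was Fgfbp3, a relative of Fgfbp1, at 7.52 ± 1.03 CPM in Tet2-WT against 4.86 ± 0.56 CPM in pMXs (0.64 ± 0.16, edgeR adjusted p = 0.0156). Its call was lost without Tet2-WT replicate 1 (edgeR adjusted p = 0.0627) or 2 (0.0817) and without pMXs replicate 100 (0.0929) or 250 (0.0566), and it was lost within replicates 1 and 2 (0.122) and within 100 and 250 (0.180). The count of 6 became 2 within replicates 1 and 2. Between Tet2-WT and Tet2-E, 3 of the 15 were called, all lower, where 2.19% of all genes were lower. Among the 3 were Gpc3 (-1.03 ± 0.18, edgeR adjusted p = 0.00411) and Flrt3 (-0.46 ± 0.12, 0.0311). The call of Flrt3 was lost without any 1 of Tet2-WT replicates 1 (edgeR adjusted p = 0.127), 2 (0.110) and 250 (0.0747) and Tet2-E replicates 1 (0.0604) and 2 (0.0619), and without Tet2-WT replicate 2 the count was 1. That call was lost too with only the 2 groups compared (edgeR adjusted p = 0.0501). Within replicates 100 and 250, with 1 Tet2-WT library, the change of Flrt3 was -0.31 ± 0.14. With Tet2-E none of the 15 was called against pMXs by edgeR or DESeq2, 3 had an unadjusted p under 0.05, and Sdc1, a syndecan, had the smallest (-0.16 ± 0.06, edgeR adjusted p = 0.403). Against untreated MEFs, 12 of the 15 were lower in pMXs and none was higher. Over all genes 70.1% were called in either direction, and 35.9% had pMXs libraries below the untreated ones without overlap. Sdc3, also a syndecan, had 80.2 ± 4.08 CPM in pMXs against 428 ± 25.9 CPM in untreated cells, and Flrt1 had 1.41 ± 0.18 against 9.35 ± 0.58 CPM.

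Of the genes that build and edit heparan sulfate, 4 of 19 tested fell with Tet2-WT against pMXs and none rose, where 6.52% of all genes fell and 6.01% rose, with a median log2 change of -0.24 beside -0.0037 over all genes. Sulf1, a secreted sulfatase that removes sulfate groups from heparan sulfate, had 175, 167 and 152 CPM in Tet2-WT replicates 1, 2 and 250, and 249.97, 274, 236 and 213 CPM in the Tet2-E replicates, against 316, 287 and 309 CPM in pMXs replicates. The 3 groups did not overlap. Sulf1 fell by 0.89 ± 0.09 in Tet2-WT against pMXs (edgeR adjusted p = 2.20e-05) and by 0.56 ± 0.09 against Tet2-E (0.00152). Its change of -0.32 ± 0.09 in Tet2-E against pMXs was not called (edgeR adjusted p = 0.174). It was called by DESeq2 (adjusted p = 0.0437), with a term for the replicate number set (edgeR adjusted p = 0.0378) and within replicates 100 and 250 (0.0367). Hs3st1, a sulfotransferase, fell by 1.05 ± 0.22 in Tet2-WT against pMXs (edgeR adjusted p = 0.00540), though not within replicates 1 and 2 (0.145) or within 100 and 250 (0.0893). The count of 4 became 2 without Tet2-WT replicate 1 or pMXs replicate 100, 1 within either set of replicate numbers and 7 with only the 2 groups compared. Between Tet2-WT and Tet2-E 2 of the 19 were called, where 4.62% of all genes were, and 4 of the 19 with the replicate block. Hs3st1 was among the 2 (-1.004 ± 0.21, edgeR adjusted p = 0.00978), and its call was lost without Tet2-WT replicate 1 (0.0538), when the count was 1. This call of Hs3st1 was lost too within replicates 1 and 2 (edgeR adjusted p = 0.199). Within replicates 100 and 250, with 1 Tet2-WT library, the change was -1.21 ± 0.38. With Tet2-E against pMXs none of the 19 was called by edgeR, 1 had an unadjusted p under 0.05, and DESeq2 called 1. Against untreated MEFs, where 70.1% of all genes were called, 3 were higher in pMXs, among them the chain-building gene Extl1 (1.98 ± 0.20) and the heparanase gene Hpse (1.55 ± 0.13), and 8 were lower, among them Hs3st1 (-1.56 ± 0.18) and Ext1 (-1.08 ± 0.06).

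**Figure D4:**
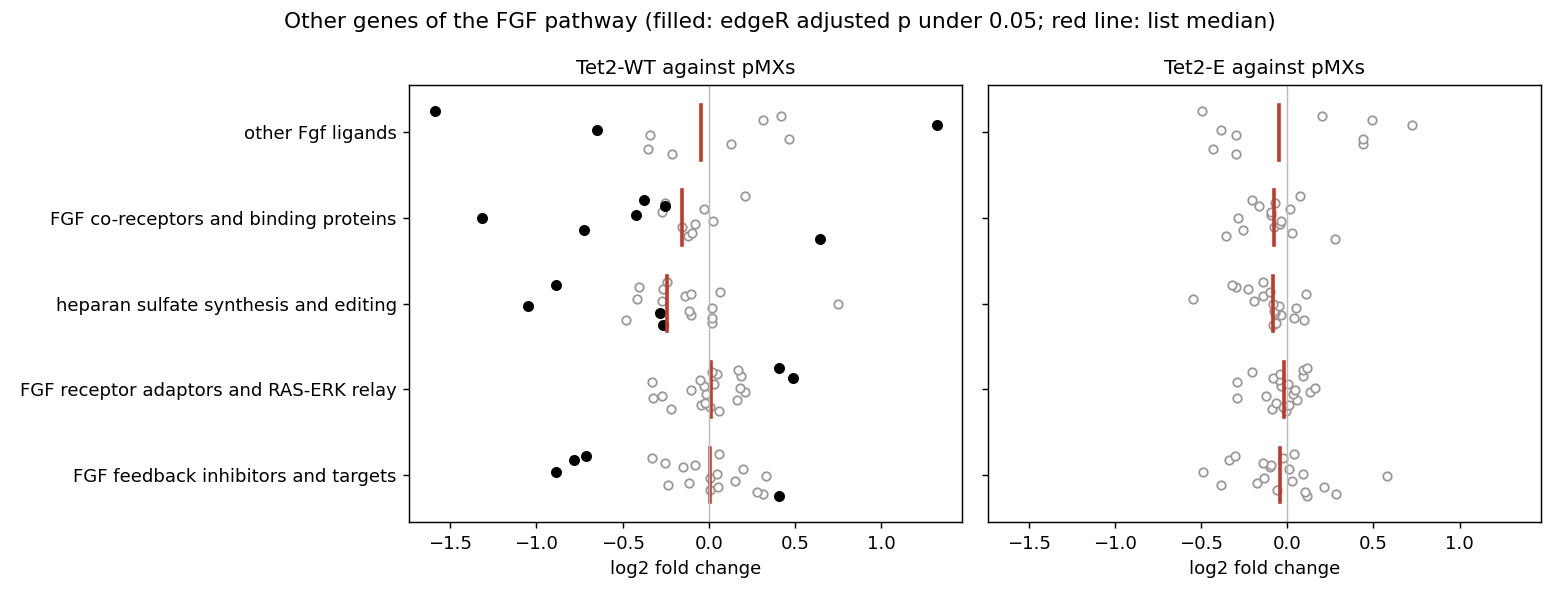
Log2 fold changes (x axis) of the other genes of the FGF pathway in 5 lists (rows), each point a tested gene, for Tet2-WT against pMXs (left) and Tet2-E against pMXs (right). Filled points have an edgeR adjusted p under 0.05 and the red line is the list's median; filled points appear in all 5 lists with Tet2-WT and in none with Tet2-E.

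Of the adaptors and kinases between receptor and ERK, 2 of 22 rose with Tet2-WT against pMXs and none fell, a share below the 12.5% of all genes called, with a median log2 change of 0.012. Plcg1, a phospholipase that FGF receptors phosphorylate, rose to 136 ± 9.04 CPM in Tet2-WT, against 96.5 ± 7.29 CPM in pMXs (0.49 ± 0.08, edgeR adjusted p = 0.000802). It was also higher than in Tet2-E, which had 90.9 ± 5.66 CPM (0.58 ± 0.07, edgeR adjusted p = 0.000339). Sos2, an exchange factor for RAS, rose to 30.5 ± 1.89 CPM in Tet2-WT, against 23.0 ± 0.63 CPM in pMXs (0.41 ± 0.08, edgeR adjusted p = 0.00351), though not within replicates 100 and 250 (0.0710), where the count was 1. Against Tet2-E its rise (0.30 ± 0.07, edgeR adjusted p = 0.0313) was lost without any 1 Tet2-WT library (0.0591 to 0.209) and without Tet2-E replicate 1 (0.0586) or 250 (0.105), when Plcg1 alone was called. The call of Sos2 against Tet2-E was lost too within replicates 1 and 2 (edgeR adjusted p = 0.120) and with only the 2 groups compared (0.0576). Within replicates 100 and 250, with 1 Tet2-WT library, the change was 0.31 ± 0.12. None of the 22 was called with Tet2-E against pMXs by edgeR or DESeq2, and 1 had an unadjusted p under 0.05, Shc1 (edgeR adjusted p = 0.535). Against untreated MEFs, with the same 70.1% of all genes called, 6 were higher and 7 lower in pMXs, with the adaptors Gab1 (0.66 ± 0.10) and Crkl (0.30 ± 0.06) higher, and Mapk3, which encodes ERK1 (-1.07 ± 0.17), and Shc1 (-0.87 ± 0.10) lower.

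Of the feedback inhibitors and target genes, 1 of 20 rose and 3 fell in Tet2-WT against pMXs, where 12.5% of all genes were called, and the median log2 change was 0.0077. Il17rd (Sef), a membrane inhibitor of FGF signalling, had 13.9, 13.1 and 14.4 CPM in Tet2-WT replicates 1, 2 and 250, and 14.6, 15.4, 22.1 and 19.95 CPM in the Tet2-E replicates, against 23.8, 24.7 and 28.1 CPM in pMXs. It fell by 0.89 ± 0.14 in Tet2-WT against pMXs (edgeR adjusted p = 0.000520). With Tet2-E none of the 20 was called by edgeR and 4 had an unadjusted p under 0.05. The Tet2-E libraries of Il17rd were also all below pMXs, but the change of -0.49 ± 0.12 was not called (edgeR adjusted p = 0.166). It was the 1 gene of the list called by DESeq2 (adjusted p = 0.0440), and edgeR called it with a term for the replicate number set (adjusted p = 0.0338), within replicates 1 and 2 (0.0276) and without Tet2-E replicate 100 (0.0415). Spry1, a Sprouty inhibitor, fell to 11.9 ± 1.31 CPM in Tet2-WT, against 20.3 ± 3.05 CPM in pMXs (-0.78 ± 0.12, edgeR adjusted p = 0.000553). Ccnd1, the cyclin D1 gene, rose to 1765 ± 94.97 CPM in Tet2-WT, against 1331 ± 40.0 CPM in pMXs (0.41 ± 0.07, edgeR adjusted p = 0.000733). Against Tet2-E, Ccnd1 (0.29 ± 0.06, edgeR adjusted p = 0.0107) and Spry1 (-0.45 ± 0.11, 0.0351) were the 2 of 20 called, where 4.62% of all genes were. The call of Ccnd1 was lost without Tet2-WT replicate 1 (edgeR adjusted p = 0.0901), and that of Spry1 without Tet2-WT replicate 1 (0.188) or 2 (0.166), Tet2-E replicate 100 (0.115) or 250 (0.0880), or untreated replicate 2 (0.0515). That of Spry1 was lost too with only the 2 groups compared (edgeR adjusted p = 0.0522). Within replicates 100 and 250, with 1 Tet2-WT library, the change was 0.28 ± 0.09 for Ccnd1 and -0.39 ± 0.13 for Spry1.

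In pMXs against untreated MEFs, 7 of these 20 were higher and 8 lower, a share near the 70.1% of all genes called. Egr1, an immediate early gene of ERK, had 6.84 ± 2.36 CPM in pMXs against 375 ± 91.9 CPM in untreated cells (-5.82 ± 0.26, edgeR adjusted p = 2.61e-10), and Spry1 had 20.3 ± 3.05 against 69.7 ± 3.71 CPM (-1.77 ± 0.12). Spry4 was higher, at 66.7 ± 6.07 CPM in pMXs against 29.1 ± 1.53 CPM in untreated cells (1.20 ± 0.11, edgeR adjusted p = 1.11e-07). Myc was higher too (3.10 ± 0.18), but Myc is one of the doxycycline-induced factors. The medium of the day 5 cells held the MEK inhibitor and that of the MEFs did not, so the inhibitor and reprogramming cannot be told apart here.

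Marker levels of other cell types moved with some of these groups. The summed level of 10 fibroblast markers, among them Col1a1 and Pdgfra, was 10162 to 11888 CPM in Tet2-WT, 13765 to 14911 in Tet2-E, 16083 to 18273 in pMXs and 37560 to 40439 in untreated libraries. Most of the sum was the collagen genes Col1a1, Col1a2 and Col3a1, with means of 8109, 5885 and 1783 CPM in pMXs. Pdgfra had 2.99 CPM in pMXs and 1.25 in Tet2-WT, and its change was not called (edgeR adjusted p = 0.0645). Against pMXs 5 of the 10 fell with Tet2-WT (Col1a1, Col3a1, Pdgfrb, Thy1 and Lum) and 1, Twist2, rose, where 6.52% of all genes fell and 6.01% rose. Against Tet2-E 4 fell, where 2.19% of all genes did. Fgfr2 was called lower in both of these comparisons, and Fgf7 and Fgf10 in the first. All 10 fibroblast markers were lower in pMXs than in untreated MEFs, where 70.1% of all genes were called in either direction, and none was at 0. Macrophage markers, 8 in all, summed to 213 to 309 CPM in Tet2-WT, 93.5 to 127 in Tet2-E, 81.0 to 94.6 in pMXs and 5.89 to 6.86 in untreated libraries. Most of the day 5 sum was Laptm5, with means of 251 CPM in Tet2-WT, 96.1 in Tet2-E and 80.0 in pMXs, against 0.263 in untreated cells. In pMXs against untreated MEFs 3 of 6 tested were higher and 3 lower, where 70.1% of all genes were called. Of 6 tested 4 rose with Tet2-WT against pMXs, where 6.01% of all genes rose. Adgre1 was at 0 in all Tet2-WT and pMXs libraries, and Ptprc and Cd53 in all pMXs libraries.

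The 10 epithelial markers summed to 381 to 600.2 CPM in Tet2-WT, 389 to 505 in Tet2-E, 462 to 611 in pMXs and 20.9 to 36.3 in untreated libraries. Of these, 2 rose with Tet2-WT against pMXs, where 6.01% of all genes rose. The 8 keratinocyte markers summed to 10.2 to 19.2 CPM in Tet2-WT, 6.05 to 10.7 in Tet2-E, 6.13 to 8.49 in pMXs and 2.92 to 3.51 in untreated libraries. In Tet2-WT against pMXs 3 of 7 tested rose, beside the same 6.01% of all genes. The 7 endothelial markers summed to 78.4 to 88.0, 81.5 to 91.5 and 76.5 to 89.6 CPM in Tet2-WT, Tet2-E and pMXs, with Emcn at 0 in all Tet2-E and pMXs libraries, and to 24.8 to 29.0 CPM in untreated libraries. Most of the day 5 sum was Tek, with a mean of 73.9 CPM in pMXs against 3.34 in untreated cells. In pMXs against untreated MEFs 2 of 5 tested were higher and 2 lower, where 70.1% of all genes were called. Of 5 endothelial markers tested, 2 fell with Tet2-WT against pMXs, Kdr and Flt1, where 6.52% of all genes fell. The 9 pluripotent cell markers summed to 38.0 to 51.2, 38.5 to 47.6 and 38.9 to 51.1 CPM in Tet2-WT, Tet2-E and pMXs, against 0.389 to 1.11 CPM in untreated libraries, with Dppa5a at 0 in all pMXs and untreated libraries and Dppa3 in all untreated ones. Of 6 pluripotent cell markers tested, Gdf3 rose and Lin28a and Esrrb fell with Tet2-WT against pMXs, where 6.01% of all genes rose and 6.52% fell. Against Tet2-E 1 rose and 1 fell, where 2.43% of all genes rose and 2.19% fell. The part of these cell types in the FGF results was not tested.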

How the data were processed

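RNA-seq of 13 libraries was measured as counts. The deposited table gives whole-number read counts by gene symbol, made by the authors from paired reads of stranded mRNA libraries. The submitters' processing notes name STAR 2.6.1a, SAMtools 1.7, bedtools 2.27.1, featureCounts 1.6.2, R 3.6.2, DESeq2 1.26.0 and build mm9. The strand setting is not given in the sources used here. No mm9 coordinates were used, and sequences and exon lengths come from GRCm38.

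Counts were fitted in R 4.3.3 with edgeR 4.0.16: filterByExpr (count minimum 10, total minimum 15; 14607 of 24495 genes kept), TMM scaling, and 1 robust quasi-likelihood fit over all libraries with a mean per group. Standard errors are absolute log2 changes over the root of the F statistic. The common biological coefficient of variation was 0.102. Replicates of a group differed by more than counting error (chi-square per degree of freedom 6.63 to 42.9 over pairs). Likeness of genes used log2 CPM with a prior count of 2.

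Replicate numbers recur across groups. After removal of group means, the 8 same-number pairs of day 5 libraries gave correlations of 0.121 to 0.339 over genes. Those with the other number of the same set (1 with 2, 100 with 250) correlated at 0.0784 to 0.363, and those of different sets at -0.420 to -0.0497. The replicate block took the numbers to pair libraries, untreated ones included. The pairing is not stated in the labels, and the labelled 2 library preparation sets are not tied to the numbers. The reported fit had no block and no term for the replicate number sets, which were spread unevenly over Tet2-WT and pMXs. With that term, Tet2-WT against pMXs gave 1.06 ± 0.09 for Fgfbp1 and -0.81 ± 0.08 for Fgfr2. It gave -0.82 ± 0.21 for Fgf7 and -1.31 ± 0.20 for Fgf10, and edgeR called all 4. Same-number pairs with untreated libraries gave -0.0425 to 0.171.

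The members and gene lists were chosen with earlier results of these data known. All members are named. From each list up to 2 genes that passed higher and 2 lower are named, by largest change with a mean of at least 1 CPM in a group, or the gene with the smallest p where none passed. One listed co-receptor gene was not matched. Alternatives were RLE scaling, DESeq2 1.42.0, other filters, a replicate block, a term for the sets, contrasts within sets, the 2 compared groups alone, and leaving out each library. The same alternatives for list genes were chosen after seeing the data.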

Additional observations from a re-analysis of the deposited data

Results flagged for a closer look

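Tet2 itself was uneven among the Tet2-E libraries. Replicate 100 had 581 CPM against 1356, 1403 and 1299 CPM in replicates 1, 2 and 250, and its gap to the nearest library was 0.873 of the group's whole range. Chance flags about 1 in 20 groups in this way. Without this library the number of genes called in Tet2-E against pMXs was 50, against 7 with it, and none of the FGF members was called either way. Fgfbp1 in this library, at 61.3 CPM, lay among the other Tet2-E libraries.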

How the results depend on the processing

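The 4 members called in Tet2-WT against pMXs were still 4 with the replicate block, and 2 to 4 when 1 library was left out (2 without Tet2-WT replicate 1 or 2 or pMXs replicate 100). No member was called in Tet2-E against pMXs under any setting run. In Tet2-WT against Tet2-E 1 to 4 were called without 1 library (1 without Tet2-WT replicate 1 or 2, 4 without Tet2-E replicate 1). Genes called without 1 library ran from 1097 (pMXs replicate 250) to 2177 (untreated replicate 100) for Tet2-WT against pMXs, from 1 (Tet2-E replicate 1, pMXs replicate 100 or 250) to 50 (Tet2-E replicate 100) for Tet2-E against pMXs, and from 335 (Tet2-WT replicate 1) to 893 (untreated replicate 100) for Tet2-WT against Tet2-E. The 7 genes called in Tet2-E against pMXs became 17 with no filter, 93 with the replicate block, 152 with a set term, 103 within replicates 1 and 2, 83 within 100 and 250, 0 with only the 2 groups (1363 at an unadjusted p under 0.05 in the fit of all groups) and 141 by DESeq2. The 675 in Tet2-WT against Tet2-E became 1052 with a set term and 1015 within replicates 1 and 2. The causes were not tested.

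Changes that turned sign were all in members that were not called. In Tet2-WT against pMXs they were Fgfr4 with the replicate block (-0.034) and, within replicates 1 and 2, Fgfr4 (-0.072), Fgfr1 (0.052) and Fgfrl1 (0.011). In Tet2-E against pMXs they were Fgfr3 within replicates 1 and 2 (0.10), Fgf10 within 100 and 250 (0.013), Fgfrl1 without Tet2-E replicate 2 (-0.00016) or 100 (-0.053) or pMXs replicate 2 (-0.045), and Fgfr4 without Tet2-E replicate 100 (0.075; from -0.55 over all leave-outs). In Tet2-WT against Tet2-E, Fgf2 turned within 100 and 250 (0.029) and without Tet2-E replicate 2 (0.067; from -0.45 over all leave-outs). Apart from Fgf10 against Tet2-E, the replicate block changed no call of a member. Depth limits Fgf2, Fgf5, Fgf7, Fgf10 and Fgfr4 at day 5.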
